A study of Mus musculus with 30 samples.

Results

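The endothelin and adrenergic receptor genes examined here are 9 genes of the mouse abdominal aorta: Edn1, which encodes the vasoconstrictor peptide endothelin-1, Ece1, which encodes a protease that releases the mature peptide from its precursor, the endothelin receptors Ednra and Ednrb, and the adrenergic receptors Adra1a, Adra1b, Adra1d, Adra2a and Adrb1. They were chosen by name, and all 9 were found among the 14379 genes with at least 1 transcript listed in all 30 libraries. The libraries were ribosome-depleted RNA-seq of abdominal aorta from wild type C57BL/6 mice, in 6 groups of 5, after 28 days of treatment. Control mice received saline. AngII mice received angiotensin-II, the effector peptide of the renin-angiotensin system, at 500 ng/kg/min. The other groups received the same angiotensin-II dose with a compound: ethoxysanguinarine (AngII+ETH, 5 mg/kg per day), baicalin (AngII+BAI, 5 mg/kg per day), gastrodin (AngII+GAS, 5 mg/kg per day) or valsartan, a blocker of the angiotensin type 1 receptor (AngII+VAL, 10.4 mg/kg per day). The series' title concerns the lowering of angiotensin-II-induced blood pressure, and the comparisons ask how the aortic RNA of infused mice differed from that of saline mice and how it differed when a compound was added. The labels used here give no sex or age. They do not state that each library came from its own animal, so p-values measure the spread between these libraries, and replicate numbers only name them.

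In the wall of an artery, endothelin-1 is made mainly by endothelial cells and acts on smooth muscle. The endothelin A receptor on smooth muscle couples to Gq and raises calcium, which contracts the cell, while the endothelin B receptor is known in endothelium, where it promotes nitric oxide release and clears the peptide, and in other cell types. Noradrenaline from sympathetic nerve endings contracts arteries through the alpha-1 receptors Adra1a, Adra1b and Adra1d, which are also Gq-coupled. Adra2a couples to Gi and inhibits transmitter release from nerve endings. Adrb1, the beta-1 receptor, couples to Gs and is best known in the heart, with expression in fat.

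The values are FPKM, a level per transcript length and per sequencing depth, summed per gene. Depth recovered from the steps between low values was 69.8 to 80.8 M reads per library. All 7 smooth muscle markers were present, and their sum was 1585 to 12128 FPKM per library. Libraries AngII+BAI 3 and AngII+BAI 5 stood apart: their smooth muscle scores (mean log2(FPKM + 1) of the markers) were 6.79 and 7.16, against 7.80 or more in the other libraries, and their macrophage scores were 7.43 and 6.88, against 6.38 or less. AngII+BAI 1 had 9401 transcripts at 0, the most of the 30 libraries. The sympathetic neuron score ran from 0.347 to 5.71 within AngII and from 0.386 to 2.22 within Control. The skeletal muscle score was 5.66 or more in all 5 AngII+VAL libraries and 3.02 or less in AngII. Of 6 kidney markers 3 were listed, and their sum was 70.3 to 100 FPKM in AngII+VAL and 0.288 to 33.5 in AngII. These are bulk samples, so fewer cells of a type and less RNA per cell cannot be told apart.

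No member passed the threshold of 0.05 on the adjusted p (limma on log2(FPKM + 1), Benjamini-Hochberg over 13223 genes) in any of the 10 comparisons. Of the 9 members, 8 passed the filter of at least 1 FPKM in 5 libraries, and Ece1 did not. The count was 0 of 8 in AngII against Control, where 0% of all tested genes passed. Against AngII it was 0 of 8 for each compound, with backgrounds of 0% for AngII+ETH, 0.333% for AngII+BAI, 0.0151% for AngII+GAS and 0% for AngII+VAL. The 4 compound groups also gave 0 of 8 each against Control, where the backgrounds were 0%, 1.44%, 0.00756% and 0% in the same order, as did the test for any difference among the 6 groups (background 0%). The backgrounds of AngII+BAI depend on single libraries. The 44 genes called against AngII became 0 without AngII 5 or without AngII+BAI 3 and 184 without AngII+BAI 2, and leaving out any of 7 libraries moved this count by over 1.5 times. The 190 genes called against Control became 8 without AngII+BAI 5 and 954 without AngII+BAI 2, and leaving out any of 10 libraries moved it as far. At an unadjusted p under 0.05 by limma, 2 of 8 members passed in AngII against Control (background 11.2%), 0 in AngII+ETH against AngII (3.41%), and 1 each in AngII+BAI (14.6%), AngII+GAS (13.7%) and AngII+VAL (10.8%) against AngII. Against Control the counts were 1 for AngII+ETH (5.18%), 1 for AngII+BAI (19.0%), 0 for AngII+GAS (3.7%) and 0 for AngII+VAL (3.84%), and 1 member passed in the test over the 6 groups (15.8%). Limma with voom weights on the recovered reads, an alternative chosen after seeing the data, also called 0 members in the 10 comparisons, with the same counts at an unadjusted p under 0.05.

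**Figure D1:**
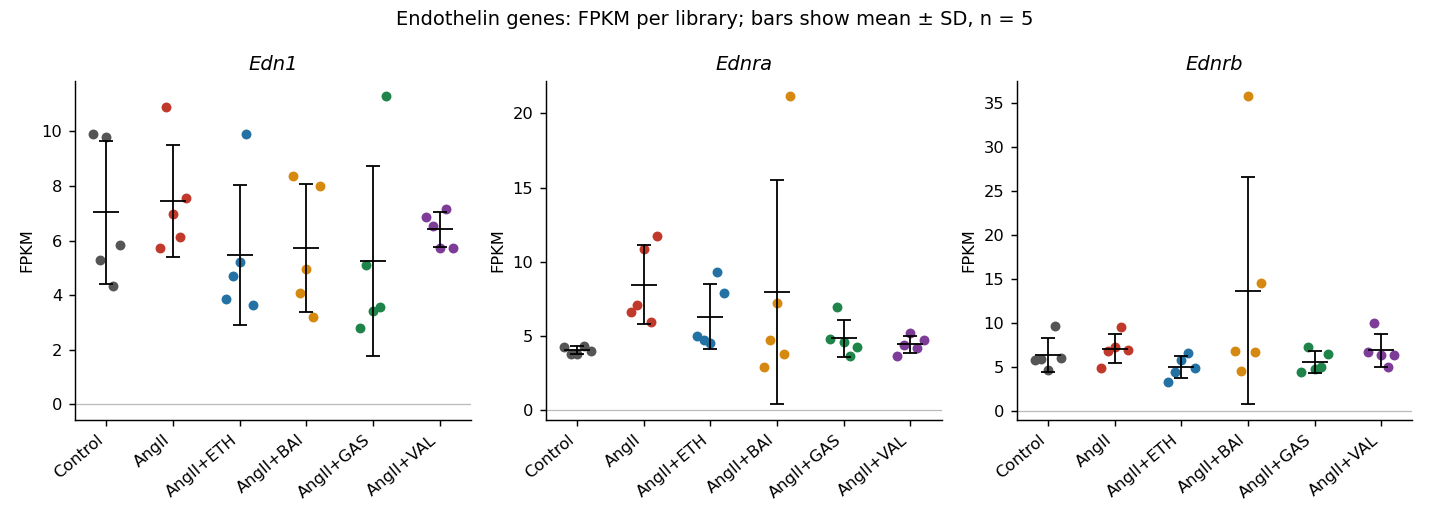
FPKM of Edn1, Ednra and Ednrb (vertical axes) in the 5 libraries of each of the 6 groups (points), with the mean ± SD as bars. The 5 Control points of Ednra lie between 3.77 and 4.35, below all 5 AngII points, and the highest Ednra and Ednrb points are AngII+BAI 5 (21.1) and AngII+BAI 3 (35.8).

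Edn1 (ENSMUSG00000021367) lies on chromosome 13 at 42301476-42307990, plus strand (mm10, GENCODE M21), with 1 annotated transcript of 5 exons and 2139 bases. The 5 Control libraries held 9.90, 5.30, 9.80, 4.32 and 5.83 FPKM, and the 5 AngII libraries held 5.74, 10.9, 6.98, 6.12 and 7.55 FPKM. The ranges overlapped over most of their length, and the log2 fold change was 0.11 (SE 0.29, limma adjusted p = 0.93). Group means ran from 7.46 ± 2.05 FPKM (SD, n = 5) in AngII to 5.23 ± 3.48 in AngII+GAS, in the order AngII, Control, AngII+VAL, AngII+BAI, AngII+ETH and AngII+GAS, and no pair among the 15 pairs of groups had separate ranges, which 0.499% to 3.55% of tested genes had in a given pair. Against AngII the log2 fold change of this ligand was -0.43 in AngII+ETH, -0.37 in AngII+BAI, -0.55 in AngII+GAS and -0.17 in AngII+VAL, and the limma adjusted p ranged from 0.39 to 0.99. In AngII+GAS, 4 libraries held 2.81 to 5.09 FPKM and AngII+GAS 5 held 11.3 FPKM, the highest of the 30. AngII+VAL was the most even group, at 5.74 to 7.17 FPKM.

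Of the 6 other genes on the endothelin list, 4 were listed in all files and 2, Ece2 and Mme, were tested. Ece2, an endothelin-converting protease related to Ece1, had 0.823 ± 0.385 FPKM (SD, n = 5) in Control and 2.01 ± 1.07 in AngII (log2 fold change 0.67, SE 0.28, limma adjusted p = 0.35). Mme, neprilysin, a protease that degrades several vasoactive peptides, had 16.6 ± 1.95 FPKM in Control and 10.95 ± 2.69 in AngII (log2 fold change -0.58, SE 0.23, limma adjusted p = 0.34). All 5 AngII libraries lay below the 5 Control libraries for Mme, at 7.83 to 14.5 against 15.2 to 19.9 FPKM, an order that 0.537% of tested genes had. Neither gene passed the threshold in any comparison. Edn3, a ligand known for its action on the B receptor, did not pass the filter and held 0.0371 to 0.572 FPKM in Control and 0.0846 to 2.24 in AngII. Edn2 and Kel were not analysed here.

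Ece1 (ENSMUSG00000057530, chromosome 4 at 137862237-137965229, plus strand) could not be assessed as a protease gene. The transcript used for it, ENSMUST00000129607, is a non-coding processed transcript of 321 bases and 3 exons, and the coding transcript of 4816 bases was not analysed here. The short transcript held 0 to 1.23 FPKM, which corresponds to 0 to 31 reads per library. Group means ran from 0.479 ± 0.183 FPKM (SD, n = 5) in AngII+VAL to 0.702 ± 0.383 in AngII, with overlapping ranges in all 15 pairs of groups. These values describe a fragment of the locus only, and AngII+BAI 1 was the library at 0 reads.

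Ednra (ENSMUSG00000031616) lies on chromosome 8 at 77663031-77724464, minus strand, and was represented by its coding transcript of 8 exons and 3625 bases. The 250 bases before its RefSeq start (GRCm38.p6, chr8:77724453-77724702, minus strand) are shown because Ednra and Adra1b were the members whose Control and AngII ranges were separate, both with AngII higher. Both strands were searched for 4 motifs, with matches in capitals: the AP-1 motif with the letters TGANTCA, found in 6.75% of the 32851 windows of 250 bases in the same RefSeq table, the GC box with the letters GGGCGG, found in 32.7% of these windows, an NFAT motif with the letters GGAAAA, found in 20.4% of them, and the TATA box with the letters TATAAA, found in 12.4%. The Ednra window held none of the 4. The table had an entry for 7 of the 9 members.
Ednra: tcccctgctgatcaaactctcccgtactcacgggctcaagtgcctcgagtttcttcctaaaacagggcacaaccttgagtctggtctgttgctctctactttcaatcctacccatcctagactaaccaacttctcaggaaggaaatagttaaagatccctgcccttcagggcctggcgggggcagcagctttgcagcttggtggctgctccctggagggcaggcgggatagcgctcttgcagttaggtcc

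Control libraries held 4.26, 3.80, 3.77, 4.35 and 3.99 FPKM of Ednra, and AngII libraries held 6.61, 7.10, 10.9, 5.97 and 11.8 FPKM. The highest Control library lay below the lowest AngII library, and AngII 3 and AngII 5 were the highest of their group. Of the tested genes, 3.01% had separate ranges with AngII higher, and 2 of the 8 tested members did, Ednra and Adra1b. The mean level was 4.03 ± 0.265 FPKM (SD, n = 5) in Control and 8.46 ± 2.65 in AngII, a ratio of 2.10. The log2 fold change was 0.87 (SE 0.30, 95% interval 0.25 to 1.48), with an unadjusted p of 0.0074 and a limma adjusted p of 0.28. The median log2 fold change over all tested genes was 0.11 in this comparison. Leaving out any 1 library kept the log2 fold change of Ednra between 0.75 and 0.97.

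The fit shares 1 estimate of spread across the groups, and the widest Ednra range was in AngII+BAI, whose libraries held 2.93, 4.70, 7.21, 3.75 and 21.1 FPKM. AngII+BAI 5 alone held more than any other library of the 30. Without AngII+BAI 3 and 5, the AngII against Control log2 fold change of Ednra was 0.87 with SE 0.19 and a limma adjusted p of 0.065. Without AngII+BAI 1, 3 and 5, a choice made after seeing the data, the limma adjusted p was 0.049, past the threshold, and without the whole AngII+BAI group, also chosen after seeing the data, it was 0.066. Against AngII, the log2 fold change of Ednra in AngII+BAI was -0.35 (SE 0.30, limma adjusted p = 0.59) with all 5 libraries and -0.95 (SE 0.22, limma adjusted p = 0.039) without AngII+BAI 3 and 5. AngII+BAI 3 and 5 held the highest Ednra of their group, so a lower group mean was built into leaving them out. AngII+BAI 1, which stayed in, held the lowest Ednra of the 30 libraries.

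AngII+VAL libraries held 3.65, 4.39, 5.18, 4.21 and 4.71 FPKM of Ednra, all below the lowest AngII library. Among tested genes 2.42% had separate ranges with AngII+VAL lower, and 1 of the 8 tested members did. The log2 fold change was -0.76 (SE 0.30, 95% interval -1.38 to -0.15, limma adjusted p = 0.35), where the median over all genes was -0.12. By limma with neuron and skeletal muscle scores as terms, 0 of the 8 tested members had an unadjusted p under 0.05 in this comparison. AngII+VAL and AngII had separate skeletal muscle scores, so that fit cannot tell muscle content from group. AngII+GAS libraries held 4.77, 6.93, 4.61, 3.66 and 4.27 FPKM, with AngII+GAS 2 inside the AngII range and the others below it (log2 fold change -0.67, SE 0.30, limma adjusted p = 0.32), where the median over all genes was -0.17. AngII+ETH libraries held 5.02, 4.73, 4.53, 9.31 and 7.92 FPKM, of which AngII+ETH 4 and 5 lay inside the AngII range (log2 fold change against AngII -0.38, SE 0.30, limma adjusted p = 0.99). All 5 AngII+ETH libraries lay above the highest Control library, which 1.29% of tested genes and 1 of the 8 tested members showed. Their log2 fold change against Control was 0.49 (SE 0.30, limma adjusted p = 0.98). In order of means the groups were AngII, AngII+BAI, AngII+ETH, AngII+GAS, AngII+VAL and Control, and 3 of the 15 pairs of groups had separate ranges.

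Markers of several cell types moved with Ednra. Over the 30 libraries, which share tissue and group structure, Spearman's rho of Ednra was 0.64 with the Schwann cell score, 0.63 with the sympathetic neuron score, 0.58 with the adrenal gland score, 0.57 with the fibroblast score, 0.54 with the macrophage score and -0.55 with the brown adipocyte score. Of the 8 adrenal gland markers only 2 were listed in all files, so that score does not stand for adrenal tissue as a whole. All 6 fibroblast markers were present, and their summed level was 894 to 1289 FPKM in Control, 1417 to 3491 in AngII and 797 to 1610 in AngII+VAL. The libraries with the highest Ednra were also high for the fibroblast score: 8.29 in AngII+BAI 5, 7.65 in AngII 5, 8.07 in AngII 3 and 7.72 in AngII+ETH 4. AngII+BAI 3 departed from this, with 7.21 FPKM of Ednra at the lowest fibroblast score of the 30, 6.01. The 10 neuron markers summed to 5.24 to 48.5 FPKM in Control and 3.47 to 774 in AngII, and the 7 Schwann cell markers to 9.03 to 18.9 and 6.30 to 164. AngII 2 and AngII 3, with neuron scores of 0.347 and 1.01, held 7.10 and 10.9 FPKM of Ednra, and AngII 1, 4 and 5, with scores of 5.07, 3.60 and 5.71, held 6.61, 5.97 and 11.8 FPKM. With neuron and skeletal muscle scores as terms in the fit, the Ednra log2 fold change for AngII against Control was 0.53 (SE 0.35, limma adjusted p = 1.00). The neuron markers had a median sum of 6.10 FPKM in Control and 171 in AngII, so this fit cannot tell nerve content from group. The parts of neuron, fibroblast, Schwann cell, adrenal gland, macrophage and brown adipocyte content in the Ednra difference were not tested.

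Ednrb (ENSMUSG00000022122, chromosome 14 at 103814625-103844402, minus strand) was summed over 2 coding transcripts, ENSMUST00000022718 (4107 bases) and ENSMUST00000227824 (2669 bases). Another coding transcript was listed in AngII+BAI only and was left out. Control libraries held 5.78, 5.86, 4.63, 9.66 and 6.01 FPKM, and AngII libraries held 4.92, 6.82, 7.31, 9.56 and 6.89 FPKM. These ranges overlapped almost wholly (log2 fold change 0.14, SE 0.32, limma adjusted p = 0.91). AngII+BAI libraries held 6.83, 4.57, 35.8, 6.72 and 14.5 FPKM, so AngII+BAI 3 and 5 were high and the other 3 lay within or just below the AngII range. The AngII+BAI log2 fold change against AngII was 0.52 (SE 0.32, limma adjusted p = 0.46) with all libraries and -0.20 (SE 0.22, limma adjusted p = 0.66) without AngII+BAI 3 and 5. In the other compound groups the log2 fold change of Ednrb against AngII was -0.44 for AngII+ETH, -0.30 for AngII+GAS and -0.04 for AngII+VAL, with limma adjusted p of 0.68 or more. Means ran from 13.7 ± 12.9 FPKM (SD, n = 5) in AngII+BAI, through AngII, AngII+VAL, Control and AngII+GAS, to 4.99 ± 1.25 in AngII+ETH, and all 15 pairs of groups overlapped.

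Macrophage markers moved with Ednrb. The 3 libraries with the highest Ednrb, AngII+BAI 3 (35.8 FPKM), AngII+BAI 5 (14.5) and AngII+VAL 2 (10.03), were those with the highest macrophage scores, 7.43, 6.88 and 6.38. The next in Ednrb, Control 4 (9.66) and AngII 4 (9.56), had scores of 5.02 and 4.87, inside the range of the other libraries. The scores of the 8 endothelial markers ran from 3.66 to 4.70 between libraries. Spearman's rho of Ednrb over the 30 libraries was 0.67 with the macrophage score and 0.32 with the endothelium score. The parts of macrophage and endothelial content in the Ednrb values were not tested. The balance of the 2 Ednrb transcripts also varied: ENSMUST00000022718 made up 51.0 ± 21.4% (SD, n = 5) of their summed FPKM in Control, with a range of 16.8% to 74.1%, and 24.1 ± 6.35% in AngII, with a range of 13.6% to 29.98%. These ranges overlapped through Control 4, the library at 16.8%. In AngII+BAI 1 the share was 91.4%.

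Taken per length, the A receptor made up 39.5 ± 5.24% (SD, n = 5) of the summed FPKM of both endothelin receptors in Control, 53.9 ± 9.71% in AngII, 55.3 ± 7.45% in AngII+ETH, 38.5 ± 16.8% in AngII+BAI, 46.5 ± 5.10% in AngII+GAS and 39.7 ± 6.59% in AngII+VAL. The share in single libraries was 31.0% to 44.9% in Control and 38.5% to 63.1% in AngII, and only AngII 4 fell inside the Control range. The summed level of both receptors was 10.4 ± 2.11 FPKM in Control and 15.6 ± 2.97 in AngII.

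**Figure D2:**
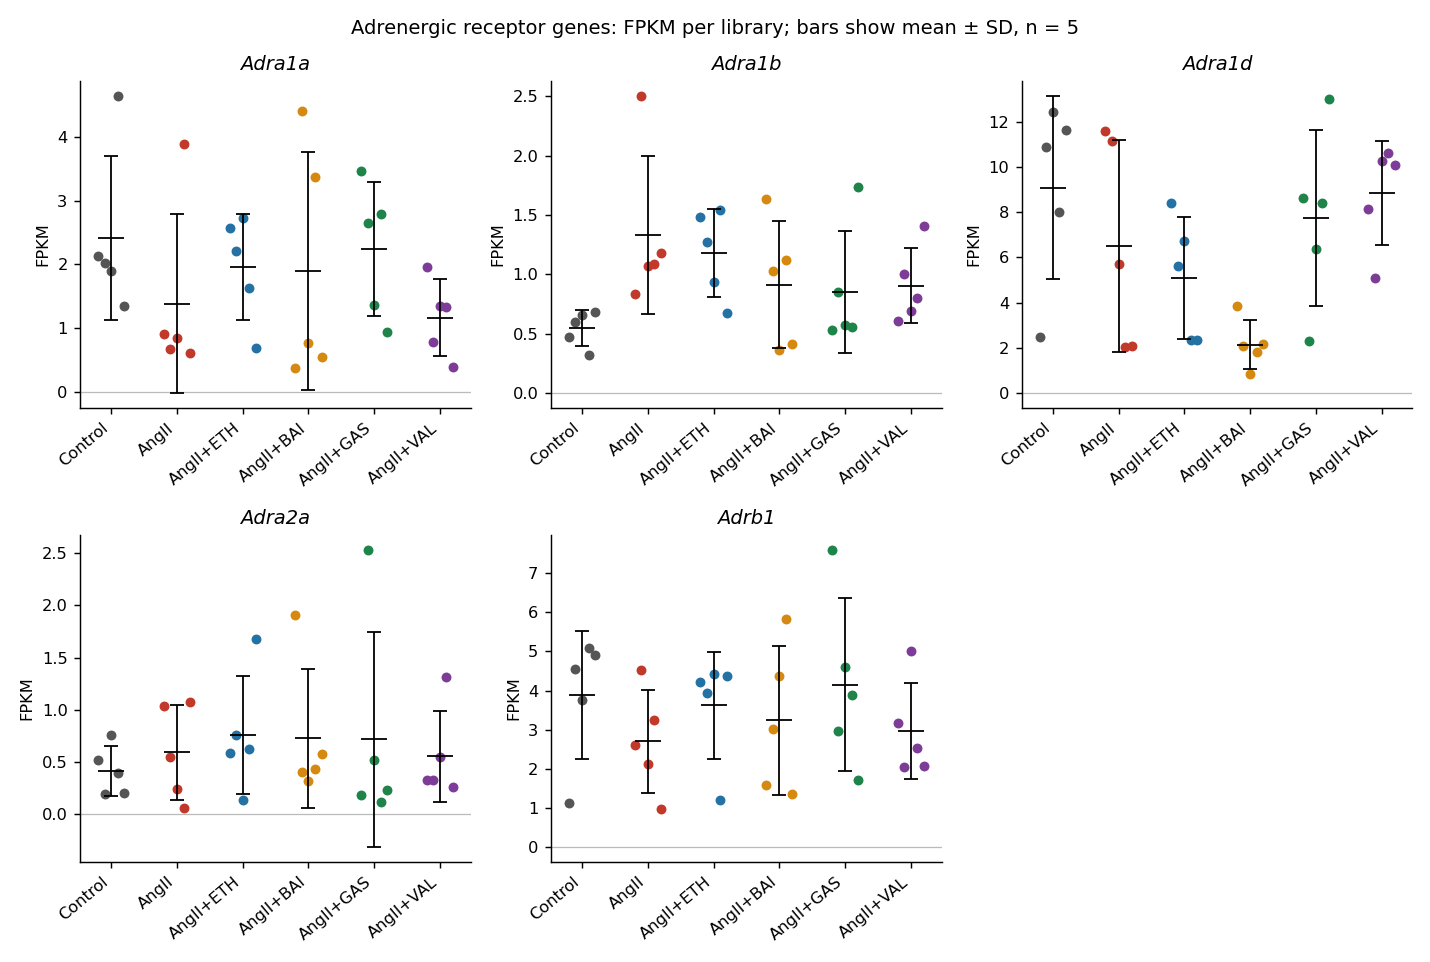
FPKM of the 5 adrenergic receptor genes (vertical axes) in the 5 libraries of each group (points), with the mean ± SD as bars. All 5 Control points of Adra1b (0.317 to 0.681) lie below the 5 AngII points (0.833 to 2.50), and the 5 AngII+BAI points of Adra1d lie at 3.84 or less.

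Among the adrenergic members the level per length was highest for Adra1d (median 6.55 FPKM over the 30 libraries), followed by Adrb1 (3.50), Adra1a (1.498), Adra1b (0.843) and Adra2a (0.478). Adra1d made up the largest part of the summed alpha-1 FPKM in each group, from 46.8 ± 19.8% (SD, n = 5) in AngII+BAI to 80.3 ± 4.97% in AngII+VAL. Exceptions among single libraries included AngII 4, where Adra1a made up 55.6% and Adra1d 28.9%, and AngII+BAI 2, where Adra1a made up 58.6% and Adra1d 27.6%.

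Adra1b (ENSMUSG00000050541) lies on chromosome 11 at 43774606-43901210, minus strand, and was represented by 1 coding transcript of 2 exons and 3047 bases, ENSMUST00000167574, which begins within the gene. The 250 bases before the nearest RefSeq start (GRCm38.p6, chr11:43836490-43836739, minus strand) are shown beside those of Ednra above. They held 1 GC box, read on the other strand and printed in capitals, and none of the other letters searched. RefSeq gives a second Adra1b window upstream (chr11:43901238-43901487, minus strand), which held 1 AP-1 match at -198 to -192 from its start and none of the other letters; it is not shown because the transcript used here does not begin there. In the window shown the share of G and C was 72.8%, against 54.8% in the Ednra window.
Adra1b: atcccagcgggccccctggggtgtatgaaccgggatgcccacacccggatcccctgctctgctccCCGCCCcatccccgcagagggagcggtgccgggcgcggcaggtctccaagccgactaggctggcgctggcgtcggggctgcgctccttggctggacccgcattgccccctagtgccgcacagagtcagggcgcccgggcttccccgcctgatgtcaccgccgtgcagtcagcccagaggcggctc

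Control libraries held 0.475, 0.595, 0.659, 0.317 and 0.681 FPKM of Adra1b, and AngII libraries held 0.833, 2.50, 1.07, 1.09 and 1.18 FPKM. All 5 AngII libraries were above all 5 Control libraries, and AngII 2 was the highest of the 30. The mean level was 0.545 ± 0.151 FPKM (SD, n = 5) in Control, from 75 to 156 reads per library, and 1.33 ± 0.667 in AngII, from 200 to 599 reads, a ratio of 2.45. The log2 fold change was 0.56 (SE 0.20, 95% interval 0.15 to 0.97), with an unadjusted p of 0.0090 and a limma adjusted p of 0.28. A pseudocount of 1 compresses a gene at this level: with a pseudocount of 0.1 the log2 fold change of Adra1b was 1.09 (limma adjusted p = 0.31). Without AngII 2 it was 0.40 (limma adjusted p = 0.41).

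In the compound groups Adra1b lay between Control and AngII on average, with overlap on both sides. AngII+ETH libraries held 1.49, 1.27, 0.933, 1.54 and 0.675 FPKM, and only AngII+ETH 5 fell inside the Control range (log2 fold change against Control 0.49, SE 0.20, unadjusted p = 0.022, limma adjusted p = 0.96). The means were 1.18 ± 0.370 FPKM (SD, n = 5) in AngII+ETH, 0.913 ± 0.534 in AngII+BAI, 0.905 ± 0.317 in AngII+VAL and 0.852 ± 0.514 in AngII+GAS. Against AngII the log2 fold change of Adra1b was -0.08 in AngII+ETH, -0.29 in AngII+BAI, -0.33 in AngII+GAS and -0.27 in AngII+VAL, with limma adjusted p from 0.45 to 0.99. The 2 AngII+BAI libraries with low smooth muscle scores held the lowest Adra1b of their group, 0.360 and 0.410 FPKM. The smooth muscle scores were 8.002 to 8.64 in Control and 8.50 to 8.80 in AngII. A fit with the smooth muscle score as a term was chosen after seeing the data. In it the log2 fold change of Adra1b for AngII against Control was 0.49 (SE 0.14, limma adjusted p = 0.17). The fibroblast markers, whose summed levels did not overlap between Control and AngII, also moved with Adra1b: Spearman's rho over the 30 libraries was 0.51 with the fibroblast score and 0.67 with the smooth muscle score. The part of fibroblast content in the Adra1b difference was not tested.

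Adra1d (ENSMUSG00000027335, chromosome 2 at 131545850-131562283, minus strand, 1 annotated transcript of 2 exons and 1899 bases) showed the lowest levels in AngII+BAI. Control libraries held 2.48, 10.9, 12.4, 8.01 and 11.6 FPKM, and Control 1 was far below the others. AngII libraries held 11.6, 11.2, 5.70, 2.02 and 2.08 FPKM, a spread as wide as that of Control (log2 fold change -0.55, SE 0.44, limma adjusted p = 0.68). AngII+BAI libraries held 3.84, 2.08, 0.822, 1.84 and 2.16 FPKM. The log2 fold change from AngII was -1.06 (SE 0.44, 95% interval -1.97 to -0.15, unadjusted p = 0.024, limma adjusted p = 0.27), and the 2 low AngII libraries lay inside the AngII+BAI range.

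Against Control the AngII+BAI log2 fold change of Adra1d was -1.61 (SE 0.44, 95% interval -2.51 to -0.70, limma adjusted p = 0.059), the closest to the threshold of any member in any comparison. The means were 9.09 ± 4.06 and 2.15 ± 1.09 FPKM (SD, n = 5), a ratio of 4.24, and Control 1 lay inside the AngII+BAI range. The call was made in 4 of the 46 other settings: the limma adjusted p was 0.0480 with median-of-ratios scaling, 0.0496 with transcripts unlisted in some groups set to 0, 0.0412 without AngII+BAI 2 and 0.0496 without AngII+GAS 5. It was 0.16 without AngII+BAI 3 and 0.19 without AngII+BAI 3 and 5. The smooth muscle scores of AngII+BAI 3 and 5 were low, and AngII+BAI 1, 2 and 4, with scores of 8.99, 8.61 and 8.47, held 3.84, 2.08 and 1.84 FPKM of Adra1d. AngII 4 and 5, with scores of 8.50 and 8.57, held 2.02 and 2.08 FPKM. The test over the 6 groups gave an unadjusted p of 0.0084 and a limma adjusted p of 0.20.

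In the other groups Adra1d ranged widely. AngII+ETH libraries held 8.40, 5.61, 6.73, 2.33 and 2.34 FPKM, AngII+GAS libraries held 8.61, 2.29, 6.38, 8.41 and 13.01, and AngII+VAL libraries held 8.16, 5.07, 10.3, 10.6 and 10.1. No AngII+VAL library was in the low range near 2 FPKM, and all 5 lay above the 5 AngII+BAI libraries, an order that 0.582% of tested genes had. This was the only 1 of the 15 pairs of groups with separate Adra1d ranges, and it is given for that reason. The daily doses of baicalin and valsartan differed, at 5 and 10.4 mg/kg. Relative to AngII, Adra1d had log2 fold changes of -0.17 in AngII+ETH, 0.34 in AngII+GAS and 0.62 in AngII+VAL, each with SE 0.44 and limma adjusted p of 0.63 or more.

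Adra1a (ENSMUSG00000045875, chromosome 14 at 66635251-66771168, plus strand) was summed over 2 coding transcripts of 4282 and 4118 bases. Another coding transcript, of 2788 bases, was listed in Control, AngII and AngII+GAS only and was left out. It held 0 to 1.28 FPKM in Control, 0 to 0.284 in AngII and 0 to 1.96 in AngII+GAS, so the values below cover part of the gene. Control libraries held 2.13, 2.02, 1.89, 4.64 and 1.34 FPKM, and AngII libraries held 0.897, 0.662, 0.849, 3.88 and 0.613 FPKM. Control 4 and AngII 4 were far above the others of their groups, and the remaining 4 AngII libraries lay below the lowest Control library. The means were 2.40 ± 1.29 and 1.38 ± 1.40 FPKM (SD, n = 5), and the log2 fold change was -0.59 (SE 0.37, limma adjusted p = 0.57). Without AngII 4 the log2 fold change of Adra1a was -0.89 (limma adjusted p = 0.31). Over all settings run it ranged from -1.07 to -0.40, with limma adjusted p of 0.31 or more. AngII+BAI libraries held 0.368, 4.41, 0.759, 3.37 and 0.549 FPKM and so fell into low and high values with a gap between them. Against AngII the log2 fold change was 0.41 in AngII+ETH, 0.19 in AngII+BAI, 0.53 in AngII+GAS and -0.04 in AngII+VAL, each with SE 0.37 and limma adjusted p of 0.51 or more. The order of means was Control, AngII+GAS, AngII+ETH, AngII+BAI, AngII and AngII+VAL, and all 15 pairs of groups overlapped.

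Adra2a (ENSMUSG00000033717, chromosome 19 at 54044151-54048982, plus strand) was represented by a single-exon coding transcript of 4832 bases and was at a low level. Its median was 0.478 FPKM over the 30 libraries, 6 of which reached 1 FPKM. Control libraries ran from 0.192 to 0.758 FPKM (mean 0.416 ± 0.235, SD, n = 5), AngII libraries from 0.0572 to 1.08 (0.593 ± 0.458) and AngII+GAS libraries from 0.115 to 2.53 (0.718 ± 1.03). All 15 pairs of groups overlapped, and the limma adjusted p of Adra2a was 0.70 or more in each comparison.

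Adrb1 (ENSMUSG00000035283, chromosome 19 at 56722199-56733113, plus strand), represented by a single-exon coding transcript of 2952 bases, had its highest mean in AngII+GAS (4.15 ± 2.22 FPKM, SD, n = 5) and its lowest in AngII (2.70 ± 1.32). Control libraries held 1.12, 4.55, 3.76, 5.10 and 4.91 FPKM, and AngII libraries held 2.61, 4.54, 2.12, 3.24 and 0.974 FPKM. The ranges overlapped through Control 1 and AngII 2 (log2 fold change -0.39, SE 0.36, limma adjusted p = 0.72). For Adrb1 the log2 fold change against AngII was 0.33 in AngII+ETH, 0.16 in AngII+BAI, 0.45 in AngII+GAS and 0.13 in AngII+VAL, each with SE 0.36 and limma adjusted p of 0.56 or more. The order of means was AngII+GAS, Control, AngII+ETH, AngII+BAI, AngII+VAL and AngII, and all 15 pairs of groups overlapped.

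Brown adipocyte markers, all 6 of them present, moved with Adrb1 between libraries, and fibroblast and smooth muscle markers moved the opposite way. Over the 30 libraries, Spearman's rho of Adrb1 was 0.60 with the brown adipocyte score. It was -0.59 with the fibroblast score and -0.51 with the smooth muscle score. The brown adipocyte score was not particular to Adrb1: its rho was 0.59 with Adra1a, -0.54 with Edn1 and -0.55 with Ednra. AngII+GAS 1 held the highest Adrb1 (7.61 FPKM) and the highest brown adipocyte score (7.53). In every group but AngII+VAL, the library with the lowest Adrb1 (1.12, 0.974, 1.19, 1.34 and 1.70 FPKM, in the order of the groups above) also had the lowest brown adipocyte score of its group (5.71, 4.65, 4.68, 4.82 and 5.48). In AngII+VAL the lowest Adrb1, 2.03 FPKM in AngII+VAL 2, stood at the highest score of that group, 6.43. The same low libraries of Control, AngII+ETH and AngII+GAS held the highest Edn1 of their groups, at 9.90, 9.91 and 11.3 FPKM. Edn1 also had a rho of 0.57 with the smooth muscle score and 0.19 with the endothelium score. Adra1a had a rho of -0.54 with the macrophage score. The parts of fat, fibroblast and smooth muscle content in the Adrb1 values were not tested. The parts of cell types in the Edn1 and Adra1a values were not tested either.

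**Figure D3:**
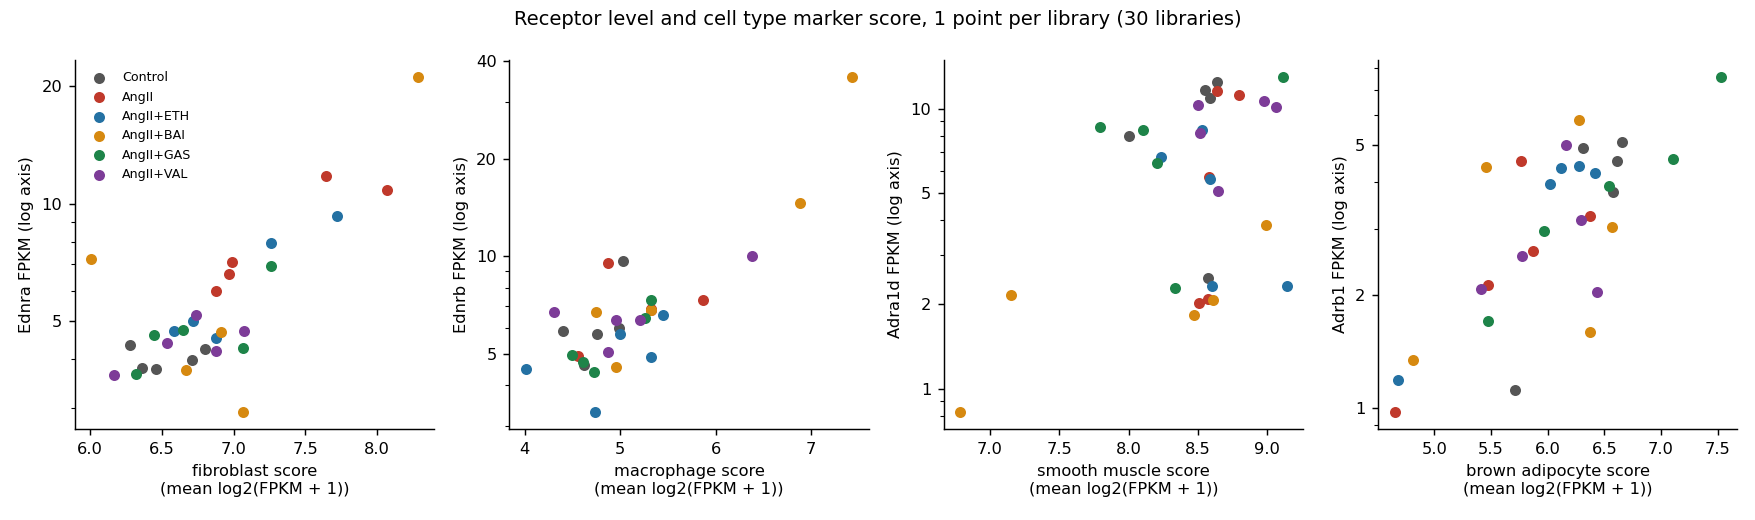
FPKM of 4 receptor genes (vertical log axes) against the score of a cell type marker list (horizontal axes, mean log2(FPKM + 1)), with 1 point per library and colors for the 6 groups. The highest Ednra point (21.1) has the highest fibroblast score, the 3 highest Ednrb points have the 3 highest macrophage scores, AngII+BAI points of Adra1d lie low at high and low smooth muscle scores, and the highest Adrb1 point (7.61) has the highest brown adipocyte score.

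Of 3 further adrenergic receptors, all were listed and 2 were tested. Adrb3, the beta-3 receptor of adipocytes, had 15.4 ± 10.9 FPKM (SD, n = 5) in Control and 9.69 ± 5.25 in AngII, above each adrenergic member in these 2 groups on average. Adra2c, a Gi-coupled receptor found on nerve endings, had 0.471 ± 0.124 FPKM in Control, 1.35 ± 1.25 in AngII and 0.390 ± 0.105 in AngII+BAI, with limma adjusted p of 0.43 for AngII against Control and 0.26 for AngII+BAI against AngII. The AngII libraries held 1.94, 0.192, 0.440, 0.909 and 3.24 FPKM of Adra2c, the same order as their neuron scores of 5.07, 0.347, 1.01, 3.60 and 5.71. With neuron and skeletal muscle scores as terms the log2 fold change of Adra2c for AngII against Control was -0.02, against 0.52 without them. The part of nerve content in the Adra2c difference was not tested. Adra2b did not pass the filter.

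The wider pathway lists held 68 genes other than the members, of which 64 were listed and 58 tested, and by limma 0 of 58 passed the threshold in either direction in any of the 10 comparisons. At an unadjusted p under 0.05, 11 of 58 were higher and 2 lower in AngII than in Control, where 9.51% of all tested genes were higher and 1.69% lower. Against AngII, 0 were higher and 1 lower in AngII+ETH (all tested genes 0.439% and 2.97%), and 2 were higher and 16 lower in AngII+BAI (5.35% and 9.29%). In AngII+GAS 1 was higher and 11 lower (1.23% and 12.4%), and in AngII+VAL 1 was higher and 3 lower (1.78% and 9.02%). The 16 lower genes in AngII+BAI included 10 of the 28 tested G proteins and effectors. The median log2 fold change of these 28 was -0.23 in that comparison, where the median over all tested genes was -0.01. The 10 became 7 with unlisted transcripts set to 0, 10 with quantile normalization, 11 with median-of-ratios scaling and 12 after rescaling without mitochondrial genes. The AngII+BAI group includes AngII+BAI 3 and 5, the libraries with low smooth muscle scores.

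Genes of catecholamine synthesis, storage and uptake had the largest median difference of the 7 pathway lists in AngII against Control, with a wide spread between libraries. All 5 tested genes had higher fitted means in AngII, with a median log2 fold change of 2.77, and their limma adjusted p ranged from 0.30 to 0.45. Th, the rate-limiting enzyme of catecholamine synthesis, held 1.71 ± 3.38 FPKM (SD, n = 5) in Control and 56.2 ± 65.1 in AngII, where libraries ran from 0.0906 to 145. Slc18a2, the vesicular monoamine transporter, held 1.11 ± 1.52 and 19.3 ± 21.2 FPKM. The libraries high for these genes were those high for the neuron score, whose list shares Th and other genes with this one. With neuron and skeletal muscle scores as terms, the log2 fold change of Th was -0.12, against 3.17 without them. Because Th is part of the neuron score, a fall was built into this fit, and no conclusion is drawn from it. Maoa, which breaks down monoamines, held 7.41 ± 2.14 FPKM in Control and 28.4 ± 24.5 in AngII (log2 fold change 1.38, SE 0.47, limma adjusted p = 0.28). Its AngII libraries, at 37.3, 7.26, 7.81, 23.4 and 66.1 FPKM, stood in the order of their neuron scores, and with neuron and skeletal muscle scores as terms the log2 fold change of Maoa was 0.22. The neuron score itself differed between the groups, so this fit cannot tell nerve content from group. The part of nerve content in the Maoa difference was not tested.

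Among other vasoconstrictor receptors, 11 of 11 tested genes had higher fitted means in AngII than in Control, with a median log2 fold change of 0.41, and none passed the threshold. Over all tested genes 66.6% had higher fitted means in AngII, and with quantile normalization and median-of-ratios scaling this share was 46.5% and 51.6%, while 9 and 10 of these 11 receptors were higher. P2rx1, the ATP-gated channel of sympathetic co-transmission on smooth muscle, held 12.8 ± 2.19 FPKM (SD, n = 5) in Control, 31.5 ± 14.3 in AngII and 12.6 ± 10.7 in AngII+BAI. Its log2 fold change was 1.13 (limma adjusted p = 0.29) for AngII against Control and -1.51 (limma adjusted p = 0.10) for AngII+BAI against AngII. The latter depended on the setting: over all settings run it ranged from -1.87 to -0.28, with limma adjusted p from 0.021 to 0.87. Ptger3, a prostaglandin E receptor, held 19.96 ± 7.62 FPKM in AngII and 9.25 ± 3.29 in AngII+BAI (log2 fold change -1.03, SE 0.25, limma adjusted p = 0.068). Gnao1, which encodes the Go alpha subunit, held 11.2 ± 2.93 FPKM in Control, 22.3 ± 10.8 in AngII and 9.79 ± 1.86 in AngII+BAI, with limma adjusted p of 0.25 for AngII against Control and 0.098 for AngII+BAI against AngII. The AngII libraries held 30.8, 12.2, 13.7, 18.3 and 36.4 FPKM of Gnao1, again in the order of their neuron scores. With neuron and skeletal muscle scores as terms, the log2 fold change of Gnao1 was 0.13 for AngII against Control, against 0.85 without them, -0.42 for AngII+BAI against AngII, against -1.005, and 0.02 for AngII+VAL against AngII, against -0.82. The 4 compound comparisons share the AngII libraries, and that of AngII with Control shares them too. The part of nerve content in the Gnao1 differences was not tested.

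**Figure D4:**
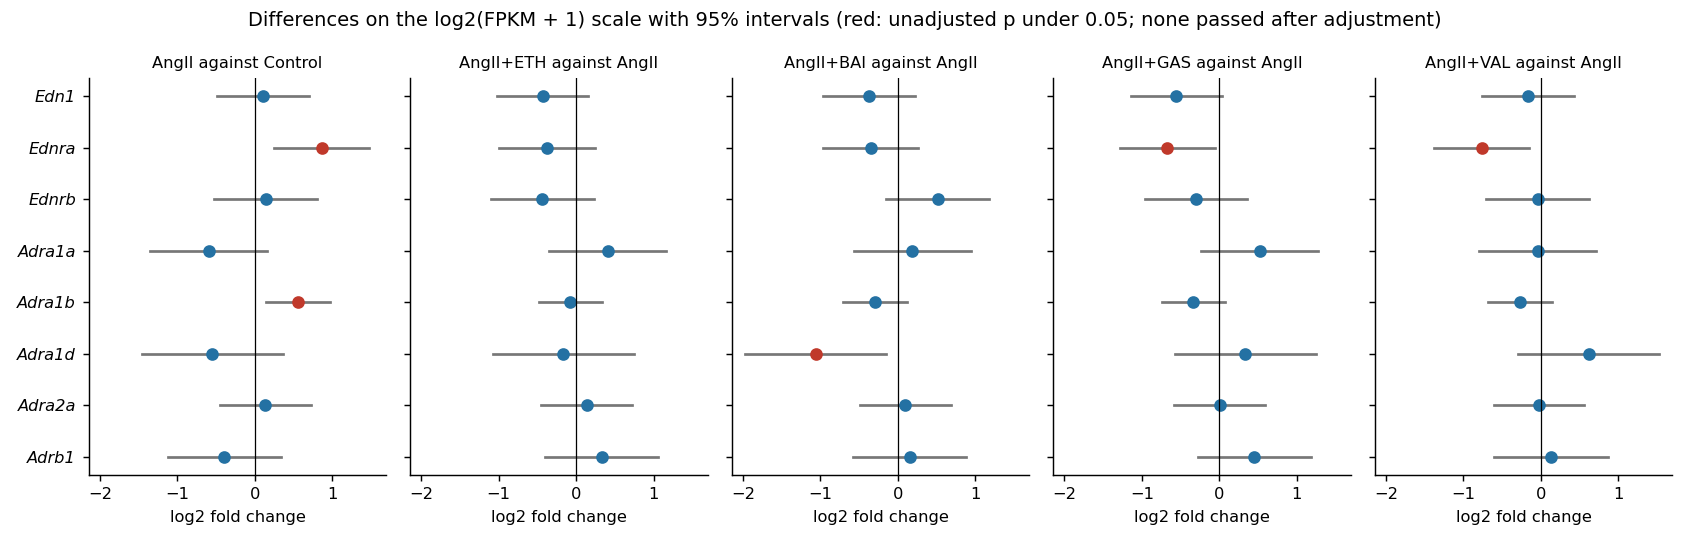
Log2 fold changes on the log2(FPKM + 1) scale (horizontal axes) with 95% intervals for the 8 tested members in the 5 main comparisons (panels). Red points have an unadjusted p under 0.05: Ednra (0.87) and Adra1b (0.56) in AngII against Control, Adra1d (-1.06) in AngII+BAI, and Ednra in AngII+GAS (-0.67) and AngII+VAL (-0.76).

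The genes whose levels followed each member most closely over the 30 libraries were found by Spearman's rho among 12206 or 12207 other genes with a mean of at least 1 FPKM, and they are given as a description, since the libraries share tissue, depth and group structure. For Ednra they were Gclc (rho 0.84), Gpnmb (0.82) and Rtn4rl2 (0.81). For Ednrb they were Emilin2 (0.73), Pglyrp1 (0.72) and Nat2 (0.71), and for Edn1 they were Myl12a (0.79), 2610044O15Rik8 (0.74) and Dnajc10 (0.74). For Adra1b they were Cyb5r3 (0.88), Mfge8 (0.87) and Pxdc1 (0.87), the highest values of any member. For Adra1d they were Tmem110 (0.83), Foxf1 (0.78) and Abcb9 (0.76), for Adra1a they were Gm5421 (0.76), Gm5582 (0.74) and Pck1 (0.73), and for Adrb1 they were Dusp4 (0.85), Ppp1r3d (0.82) and Zfp768 (0.81). Adra2a, the member with the lowest level among those tested, had the weakest partners, Paqr4 (0.67), Anapc11 (0.63) and Acot7 (0.63).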

How the data were processed

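Ribosome-depleted RNA-seq of 30 abdominal aorta libraries was used. Each deposited file gives FPKM per transcript, a unit inferred from the values, since no aligner or quantifier is named in the labels; the submitters' processing notes name limma and the build mm10. Of 33677 Ensembl transcripts, 33638 matched GENCODE M21. Per gene, FPKM was summed over the transcripts listed in all files, since each group's files list their own transcripts. Low values stood within 0.1 read of whole reads for 98.9% to 99.5% of those at 20 reads or fewer, which gave the depth. Reads are not printed for Adra2a and Adrb1, whose steps did not match the annotated length.

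Limma 3.58.1 (R 4.3.3) was fitted to log2(FPKM + 1) of all 30 libraries, with 1 mean per group and a trended, robust variance (24 residual degrees of freedom), over the 13223 genes with at least 1 FPKM in 5 libraries. Fold changes on this scale understate those of low genes. The p-values were adjusted by the Benjamini-Hochberg method with a threshold of 0.05. The scripts were tested on simulated data. Alternatives changed the pseudocount, filter, scaling, samples, weights, variance model and covariates, and left out each library. The members and gene lists were chosen with earlier results of these data known, and 1 gene of the lists is not reported here. Named genes are the 9 members, pathway genes among the 2 with the smallest p of their list in a comparison (levels are also given for Edn3), and the 3 genes most like each tested member. Protein sequences were not used here.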

Additional observations from a re-analysis of the deposited data

Results flagged for a closer look

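Each of the 54 combinations of a member and a group was examined for a library set apart from the other 4 by more than 0.71 of the group's whole range (Dixon's ratio), and 12 had one, 11 of them high. Chance gives about 1 in 20 for normally distributed values, which FPKM are not: over all tested genes and groups, 10.3% of 79293 combinations had such a library, 75.8% of them a high one. For Edn1 these were AngII+ETH 4 at 9.91 FPKM (others 3.65 to 5.23) and AngII+GAS 5 at 11.3 (others 2.81 to 5.09). For the endothelin receptors they were Ednra in AngII+BAI 5 at 21.1 FPKM (others 2.93 to 7.21) and Ednrb in Control 4 at 9.66 (others 4.63 to 6.01). Adra1a was set apart in Control 4 at 4.64 FPKM (others 1.34 to 2.13) and in AngII 4 at 3.88 (others 0.613 to 0.897). Adra1b was set apart in AngII 2 at 2.50 FPKM (others 0.833 to 1.18) and in AngII+GAS 5 at 1.74 (others 0.530 to 0.852). Adra2a was set apart in AngII+BAI 1 at 1.91 FPKM (others 0.317 to 0.579), AngII+GAS 2 at 2.53 (others 0.115 to 0.525) and AngII+VAL 4 at 1.31 (others 0.261 to 0.551). Adrb1 was set apart in AngII+ETH 4 at 1.19 FPKM (others 3.94 to 4.41), the only one of the 12 that was low. Control 4, AngII+ETH 4 and AngII+GAS 5 each appear for 2 members.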

How the results depend on the processing

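Besides the reported fit, 47 settings were run, 4 of them added after seeing the data; the one without the AngII+BAI group gives no value for comparisons with that group, and the filter at 5 FPKM removes low members. The count of members past the threshold stayed at 0 except where it became 1: for AngII against Control without AngII+BAI 1, 3 and 5 (Ednra), for AngII+BAI against AngII without AngII+BAI 3 and 5 (Ednra), and for AngII+BAI against Control with median-of-ratios scaling, with unlisted transcripts set to 0, or in the range of 0 to 1 when each library was left out (Adra1d). Pathway genes past the threshold in AngII+BAI against AngII numbered 1 after rescaling without mitochondrial genes or without AngII+BAI 3 and 5, and 0 to 2 when each library was left out. In AngII+BAI against Control they numbered 1 with the smooth muscle score as a term, 3 without AngII+BAI 2 and 2 without AngII+BAI 4, and 1 passed in the test over the 6 groups without AngII+BAI 2. The cause was not tested. Over all tested genes the median difference of AngII from Control on the log2 scale was 0.11 as deposited, 0.010 with median-of-ratios scaling and -0.02 with quantile normalization.

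None of the fold changes that turned sign had passed the threshold. With quantile normalization and then median-of-ratios scaling, Edn1 was -0.0387 and -0.0002 in AngII against Control, and in AngII+VAL against AngII Ednrb was 0.0993 and 0.0795 and Adra1a 0.0861 and 0.0321. Adra1b was 0.0341 in AngII+ETH against AngII with quantile normalization. Without AngII+BAI 3 and 5, Ednra was -0.0857 in AngII+BAI against Control and Ednrb -0.20 in AngII+BAI against AngII, and -0.28 without AngII+BAI 1 as well. With neuron and muscle scores as terms, Adra1a was 0.24 in AngII+VAL against AngII, Adra1d -0.0601 in AngII+GAS against AngII, Adrb1 -0.15 in AngII+BAI and -0.29 in AngII+VAL against AngII, Gnao1 0.0178 in AngII+VAL against AngII, and Adra2c -0.0225 and Th -0.12 in AngII against Control. Th is itself a gene of the neuron score. With the smooth muscle score as a term, Ednrb was 0.0422 in AngII+VAL, Adra1b 0.0096 and Adrb1 -0.0911 in AngII+BAI, all against AngII, and Adra1d -0.0148 in AngII+VAL against Control, where array weights gave -0.0175.

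Leaving out each library gave ranges that include 0 for Edn1 in AngII against Control (-0.0264 to 0.232), for Ednrb in AngII+VAL (-0.168 to 0.0614), Adra1a in AngII+BAI (-0.0977 to 0.484) and AngII+VAL (-0.16 to 0.26), Adra1b in AngII+ETH (-0.153 to 0.0809), Adra1d in AngII+ETH (-0.431 to 0.0845) and Adrb1 in AngII+BAI (-0.0504 to 0.34) and AngII+VAL (-0.0742 to 0.298), all against AngII, and for Adra1d in AngII+GAS (-0.56 to 0.11) and AngII+VAL (-0.28 to 0.24) against Control. No paired analysis was possible because the labels carry no replicate number: libraries are numbered here in accession order within each group, which pairs none of them. The numbers of reads for Adra1b and Ece1 limit their precision.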
